A study of Mus musculus with 6 samples.

Results

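Apolipoproteins are the protein parts of plasma lipoproteins, the particles that carry triglyceride and cholesterol in blood, and the liver makes most of them. The group described here is 10 genes listed by name: Apob, Apoe, Apom, Apoa1, Apoa2, Apoa4, Apoa5, Apoc1, Apoc3 and Apoh. These genes were chosen with earlier results of these data known. They were looked up in a table of 56350 mouse gene IDs, and all 10 were found and passed the filter on low counts. The series is bulk RNA sequencing of mouse liver, with 3 samples of an Atg14 knockout restricted to hepatocytes (HepKO) and 3 wild-type samples (WT). The Atg14 protein recruits the Vps34 lipid kinase to sites where autophagosomes form. The driver of the hepatocyte deletion, the WT allele, age, sex, diet and fasting state were not given in the sources used here, and the labels do not say whether samples came from separate animals.

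Hepatocytes build very low density lipoprotein (VLDL) around Apob, the large structural protein that stays with its particle until the particle is taken up. Apoa1 and Apoa2 are the main proteins of high density lipoprotein (HDL), and smaller exchangeable proteins such as Apoe, Apoc1, Apoc3 and Apoa5 move between particles and set how fast their triglyceride is used and how they are cleared. Several of these genes lie side by side in compact clusters, and their transcription in liver depends on hepatocyte nuclear receptors such as Hnf4a.

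Libraries held 33145684 to 48951937 counted reads. Atg14, the targeted gene, had 329, 379 and 313 counts in HepKO replicates 1 to 3, against 620, 796 and 719 in WT (log2 fold change -1.54 ± 0.16 SE, edgeR adjusted p = 4.69e-04). HepKO replicate 1 stood apart in its sex-linked genes. It had 30377 counts of Xist, where the other 5 libraries had 2 to 22, and 3 to 6 counts of each of Ddx3y, Kdm5d, Eif2s3y and Uty, where the others had 571 to 3482. The labels give no sex, but by these counts the groups may not be matched for it. An effect of sex was not tested. Results that rest on HepKO replicate 1 are therefore also given without it.

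Of the 10 apolipoprotein genes, 9 were lower in HepKO livers and none was higher, under the scaling of library sizes by the trimmed mean of M-values (TMM). Among all 16051 genes tested, 18.7% were called lower and 19.5% higher at an adjusted p under 0.05 (edgeR quasi-likelihood test, Benjamini-Hochberg adjustment). The median log2 fold change, HepKO over WT, was -0.94 for the 10 members and 0.01 for all genes tested. The TMM-scaled counts (CPM, counts relative to library size) of the groups did not overlap for the same 9 members, where this held for 53.5% of all genes tested. Together the 10 genes took 3.06%, 3.34% and 3.41% of the reads in HepKO replicates 1 to 3, against 4.56%, 4.27% and 4.39% in WT replicates 1 to 3.

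The count of falls rests on the scaling. With library totals and no scaling factor, 4 members were lower and 1 was higher, where 5.84% of all genes were then lower and 46.4% higher. The median of all genes was then 0.52 and that of the members -0.42, since the choice of scaling moves all genes by about the same amount. CPM on library totals overlapped between the groups for Apoa1, Apoa4, Apob, Apoc1 and Apoc3, and did not overlap for Apom. The share of all genes without overlap was not counted under library totals. Without HepKO replicate 1, 7 members were lower and 0 higher under TMM, where 17.5% of all genes were lower and 16.3% higher. The calls lost were those of Apoa1 and Apoa4. In bulk tissue, fewer hepatocytes and less of an mRNA per hepatocyte cannot be told apart.

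**Figure D1:**
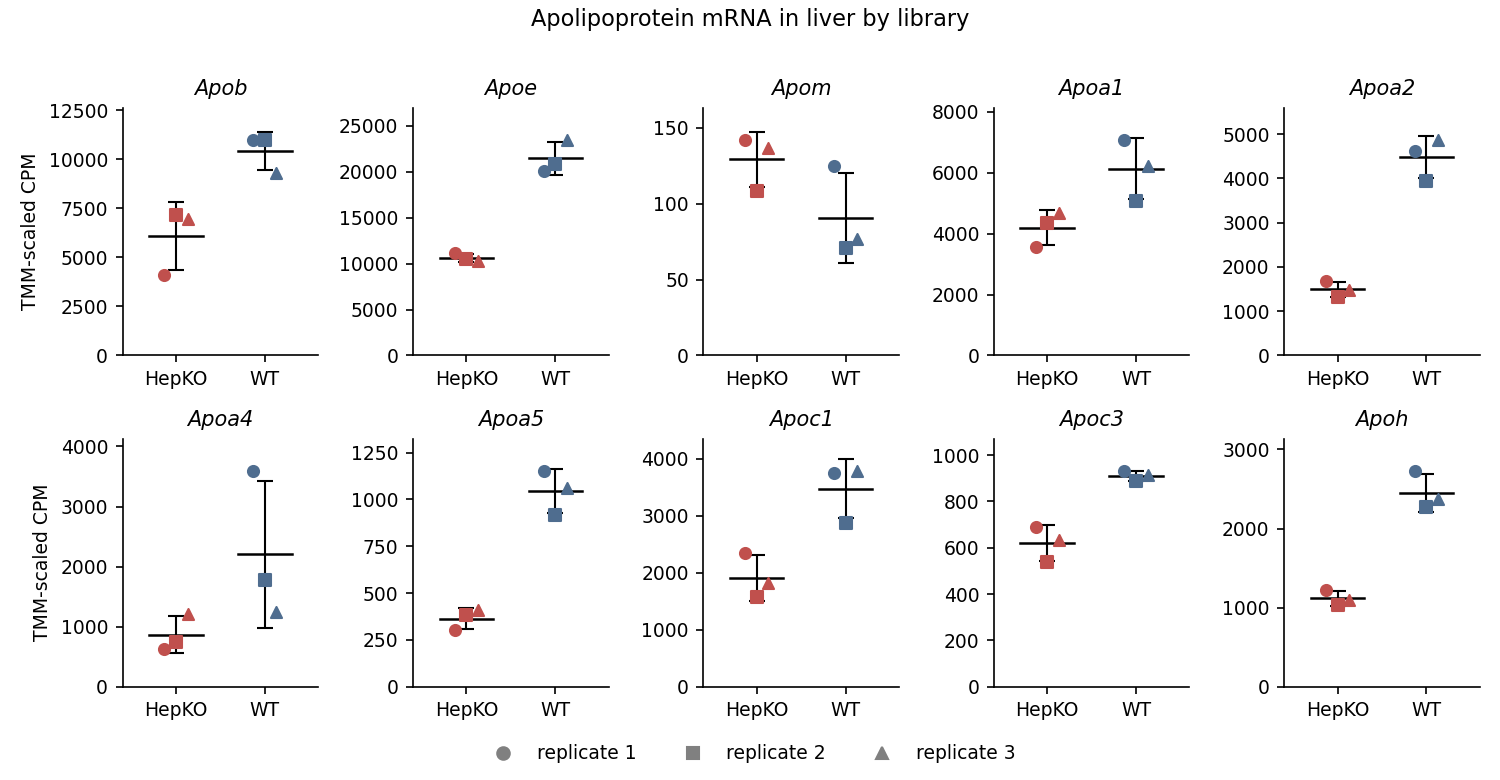
Each point is 1 library (marker shape gives the replicate number), the line is the group mean and the bars are ± SD over 3 libraries. The vertical axes start at 0 and show TMM-scaled CPM, with a scale of their own for each gene. HepKO points lie below WT points for every gene but Apom, and Apoa4 spans 1242 to 3589 CPM within WT.

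Apob, the structural protein of VLDL, was lower in HepKO livers, and the fall was smaller without HepKO replicate 1. It had 4089, 7168 and 6985 CPM in HepKO replicates 1 to 3, against 10997, 10973 and 9322 CPM in WT replicates 1 to 3. Under TMM all HepKO values lay below all WT values, and HepKO replicate 1 was the lowest of them. Under library totals the groups overlapped. The log2 fold change was -0.78 ± 0.23 SE (edgeR adjusted p = 0.0299), and -0.57 without HepKO replicate 1 (edgeR adjusted p = 0.0194). Without WT replicate 1 (edgeR adjusted p = 0.0709) or WT replicate 2 (edgeR adjusted p = 0.0898) the call ended. Under library totals the log2 fold change was -0.27 (edgeR adjusted p = 0.361).

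Apoe, the ligand by which hepatocytes take up remnant particles, was the most abundant of the 10 mRNAs. It had 11111, 10541 and 10275 CPM in HepKO libraries, against 20040.1, 20868 and 23465 CPM in WT libraries. The groups were far apart, with a fall of 2.02-fold in HepKO (log2 fold change -1.01 ± 0.15 SE, edgeR adjusted p = 0.00178). The call held under library totals (log2 fold change -0.50, edgeR adjusted p = 0.0212) and without HepKO replicate 1 (log2 fold change -1.05, edgeR adjusted p = 0.00216). Macrophages also make Apoe, and their markers moved the other way. Of 11 Kupffer cell markers 10 were higher in HepKO and 0 lower, with a summed level of 520.2 to 932 CPM in HepKO and 193 to 363 CPM in WT, and all 11 had counts in every library. Of 8 markers of recruited macrophages, 7 were tested and all 7 were higher, with sums of 276 to 636 CPM in HepKO and 57.6 to 98.3 CPM in WT. Much of these sums is Spp1. It had 134, 515 and 201 CPM in HepKO libraries, against 35.2, 54.4 and 39.9 CPM in WT libraries. Trem2, the eighth, had 4 counts in HepKO replicate 1 and none in any other library. What these cells contributed to the Apoe level was not tested. Markers were also higher for 3 of 8 stellate cell, 3 of 5 cholangiocyte and 2 of 5 lymphocyte genes, and 2 of 4 erythrocyte markers were lower, while 0 of 7 endothelial markers passed in either direction. Of 5 adipocyte markers, 1 was tested and was lower in HepKO (log2 fold change -9.70). The adipocyte markers summed to 0.02 to 0.10 CPM in HepKO, against 12.8 to 66.7 CPM in WT. Of the 5, 2 had at most 3 counts summed over each group, 1 of them with 0 throughout. The sum therefore does not stand for all 5. The part of adipocytes in the Apoe level was not tested.

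Among the HDL proteins, Apoa2 had a larger fall than Apoa1. Apoa2 had 1672, 1330.35 and 1485 CPM in HepKO libraries, against 4614, 3948 and 4867 CPM in WT libraries. It was 2.99-fold lower in HepKO, the largest fall of the 10 (log2 fold change -1.58 ± 0.15 SE, edgeR adjusted p = 3.12e-04), and stayed lower under library totals (log2 fold change -1.07, edgeR adjusted p = 6.46e-04). Apoa1, the main HDL protein and the activator of the cholesterol-esterifying enzyme Lcat, had 3561, 4353 and 4668 CPM in HepKO libraries, against 7072, 5069.9 and 6227 CPM in WT libraries. Under TMM its highest HepKO library lay close under its lowest WT library. The fall was 1.46-fold (log2 fold change -0.55 ± 0.18 SE, edgeR adjusted p = 0.0420). This call ended in 5 of the 6 fits that left out a library, HepKO replicate 1 among them (edgeR adjusted p = 0.0759), and under library totals the log2 fold change was -0.03. Their ratio within a library does not depend on scaling. There were 2.13, 3.27 and 3.14 Apoa1 reads for each Apoa2 read in HepKO replicates 1 to 3, against 1.53, 1.28 and 1.28 in WT replicates 1 to 3.

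Apom was the only member whose level was higher on average in HepKO. It encodes a lipocalin that carries sphingosine-1-phosphate on HDL. It had 142, 109 and 137 CPM in HepKO libraries, against 125, 70.6 and 76.7 CPM in WT libraries. Under TMM the ranges overlapped, since WT replicate 1 lay above HepKO replicate 2. The log2 fold change was 0.51 ± 0.22 SE and did not pass the test (edgeR adjusted p = 0.104). It passed under library totals (log2 fold change 1.02, edgeR adjusted p = 0.00541), where 46.4% of all genes were called higher. It also passed with DESeq2 (adjusted p = 0.0434), with no filter on low counts (edgeR adjusted p = 0.0180) and with a replicate block (log2 fold change 0.55, edgeR adjusted p = 0.0387). Without WT replicate 1 it passed as well (log2 fold change 0.81, edgeR adjusted p = 0.00760). Apom did not pass with limma-voom (adjusted p = 0.0756) or without HepKO replicate 1 (log2 fold change 0.43, edgeR adjusted p = 0.217). Nor did it pass with any other library left out, or with the other scalings and filter (edgeR adjusted p = 0.0844 to 0.227). Over the alternative fits its log2 fold change stayed above 0, between 0.39 and 1.02.

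The proteins that act on triglyceride-rich particles fell by unequal amounts. Apoa5, which promotes triglyceride hydrolysis by lipoprotein lipase, had 301, 381 and 408 CPM in HepKO libraries, against 1151, 919 and 1060.2 CPM in WT libraries. It was 2.87-fold lower (log2 fold change -1.52 ± 0.15 SE, edgeR adjusted p = 3.80e-04) and stayed lower under library totals (log2 fold change -1.01, edgeR adjusted p = 0.00103). Gm47544 overlaps 524 of its 2522 exonic bases on the other strand and had at most 119 counts in a library. Apoc3, which slows that hydrolysis and the clearance of remnants, had 688, 538 and 633 CPM in HepKO libraries, against 931, 887 and 913 CPM in WT libraries. Under TMM its groups were separate but closer, at 1.47-fold lower (log2 fold change -0.55 ± 0.12 SE, edgeR adjusted p = 0.00959). Under library totals they overlapped, and the log2 fold change was -0.04. Apoc1, a small protein of VLDL and HDL that hinders particle uptake, had 2349.8, 1569.6 and 1811 CPM in HepKO libraries, against 3755, 2874 and 3782 CPM in WT libraries (log2 fold change -0.86 ± 0.19 SE, edgeR adjusted p = 0.00940). Under library totals its log2 fold change was -0.35 (edgeR adjusted p = 0.137).

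Apoa4, a protein of HDL and of triglyceride-rich particles that mouse liver and intestine both make, varied most among WT libraries. It had 628, 747 and 1218 CPM in HepKO libraries, against 3589, 1778 and 1242 CPM in WT libraries. HepKO replicate 3 and WT replicate 3 were nearly equal, although the groups did not overlap under TMM. The log2 fold change was -1.35 ± 0.40 SE (edgeR adjusted p = 0.0317). It was -0.81 without WT replicate 1 (edgeR adjusted p = 0.0815) and -1.17 without HepKO replicate 1 (edgeR adjusted p = 0.0808). Without HepKO replicate 2 the call ended as well (edgeR adjusted p = 0.0998), and under library totals the log2 fold change was -0.84 (edgeR adjusted p = 0.112). Genes on the other strand, Gm10680 and Gm47528, overlap 632 and 634 of its 1815 exonic bases, and the strand setting of the counting was not stated. They had at most 351 and 122 counts in a library. Of 5 enterocyte markers, Sis had 0 counts in every library and Vil1, Alpi and Rbp2 at most 43, 4 and 9. Fabp2 was the only one tested and was lower in HepKO (log2 fold change -1.72, edgeR adjusted p = 0.00183). The summed level of the markers was 61.1 to 118 CPM in HepKO and 259.8 to 383 CPM in WT. By these counts the sum is nearly all Fabp2 and does not stand for the other markers. The part of enterocytes in the Apoa4 result was not tested.

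Apoh (beta-2-glycoprotein I), a phospholipid-binding plasma protein, had 1218, 1036 and 1091 CPM in HepKO libraries, against 2726, 2267 and 2368 CPM in WT libraries. The libraries within each group were close together, and the fall of 2.20-fold passed the test (log2 fold change -1.14 ± 0.13 SE, edgeR adjusted p = 6.50e-04). It also passed under library totals (log2 fold change -0.63, edgeR adjusted p = 0.00425).

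**Figure D2:**
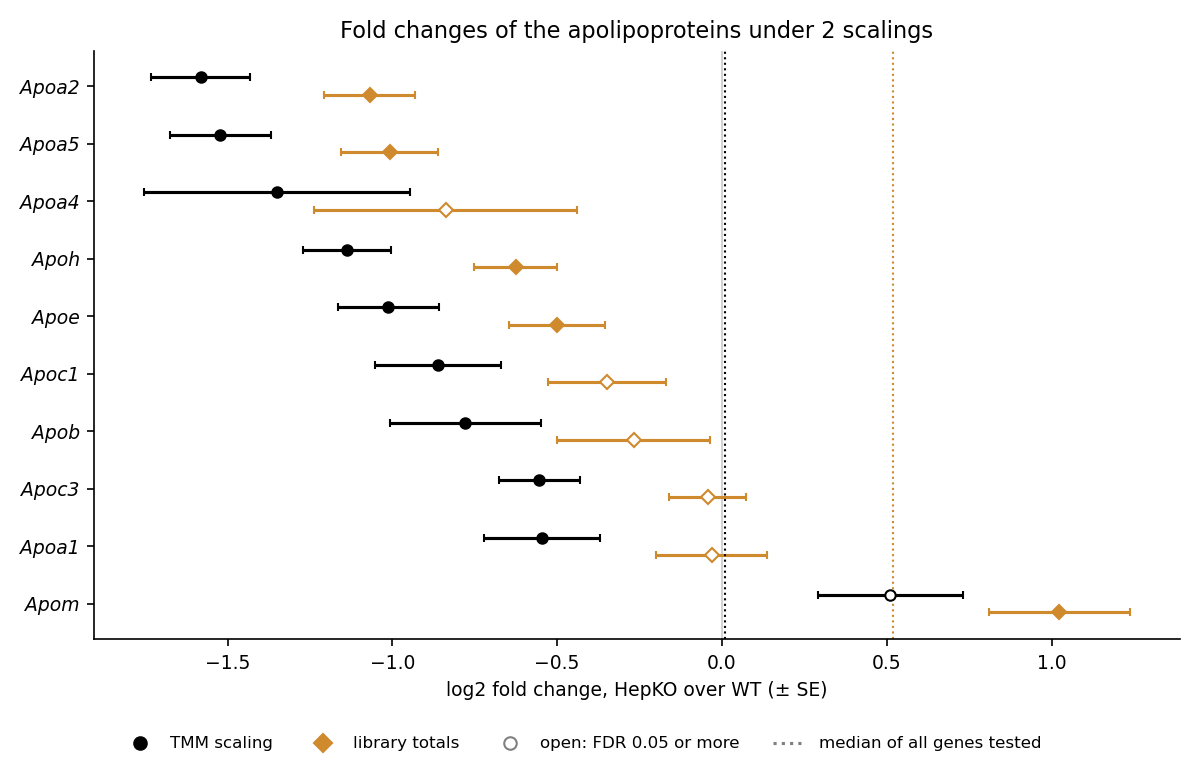
Log2 fold changes of the 10 genes, HepKO over WT, with SE bars, under TMM scaling (black circles) and library totals (orange diamonds). Filled symbols passed an adjusted p under 0.05, and dotted lines mark the median of all genes tested (0.01 and 0.52). The order of the genes is the same under both scalings, from Apoa2 at -1.58 and -1.07 to Apom at 0.51 and 1.02.

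The promoter stretches of Apoa2 and Apoa5, the genes with the largest falls, and of Apoe, the most abundant, are shown to give the sequence in front of each. They are the 250 bases before the RefSeq transcription start (GRCm38.p6), 5′ to 3′ on the gene's strand, with matches to the searched motifs in capitals.
Apoa2, chr1:171224804-171225053, plus strand: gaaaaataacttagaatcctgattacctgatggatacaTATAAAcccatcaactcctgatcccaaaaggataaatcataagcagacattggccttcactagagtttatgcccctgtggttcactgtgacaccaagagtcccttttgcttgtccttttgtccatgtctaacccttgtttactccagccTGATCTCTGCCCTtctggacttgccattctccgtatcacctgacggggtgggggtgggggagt
Apoa5, chr9:46268383-46268632, plus strand: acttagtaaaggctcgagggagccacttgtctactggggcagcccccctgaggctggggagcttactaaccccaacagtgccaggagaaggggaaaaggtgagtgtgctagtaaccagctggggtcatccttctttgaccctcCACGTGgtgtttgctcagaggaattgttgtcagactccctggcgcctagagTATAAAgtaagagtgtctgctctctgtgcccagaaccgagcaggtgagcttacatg
Apoe, chr7:19699189-19699438, minus strand: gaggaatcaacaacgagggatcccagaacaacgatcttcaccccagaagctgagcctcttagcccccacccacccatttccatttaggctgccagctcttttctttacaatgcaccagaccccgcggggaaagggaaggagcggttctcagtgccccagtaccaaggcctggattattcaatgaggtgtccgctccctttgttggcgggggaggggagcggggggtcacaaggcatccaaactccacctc
Counting the last base before the start as -1, Apoa2 had a TATAAA at -212 to -207 and a loose DR1, a direct repeat of nuclear receptor half-sites, on the other strand at -63 to -51. Apoa5 had a CACGTG E-box at -107 to -102 and a TATAAA at -56 to -51, and the Apoe stretch had no match. Among 27025 promoter stretches of this length, 12.9% held TATAAA, 2.32% the loose repeat and 6.02% the E-box. Promoter entries matched 8 of the 10 members, all but Apoc1 and Apoc3. Of those 8, 3 held TATAAA, 1 the loose repeat and 1 the E-box. Also searched on both strands were TTGCNNAA, found in 1 member (Apob) and 9.53% of all, and TGACGT, the HNF4 core CAAAGTCCA, an HNF1 motif and an IR1 repeat, found in 0 members and in 6.55%, 0.374%, 0.0629% and 0.0074% of all. TATAAA, the E-box and the other matches did not overlap each other in these stretches, and a match describes letters only.

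Levels were compared between genes as TMM-scaled CPM per kilobase of merged exons. In HepKO livers the order from high to low was Apoe (4978 ± 200 SD), Apoa1 (3393 ± 462), Apoa2 (2786 ± 319), Apoc1 (2567 ± 537), Apoh (699.5 ± 58.7), Apoc3 (611 ± 75.0), Apoa4 (476 ± 172), Apob (436 ± 124), Apoa5 (144 ± 22.05) and Apom (128 ± 17.8). In WT livers Apoe was again first (10036 ± 836) and Apoa2 second (8335 ± 884), ahead of Apoa1 (4954 ± 813), Apoc1 (4664 ± 694), Apoh (1539 ± 151), Apoa4 (1214 ± 678), Apoc3 (897 ± 21.9), Apob (749 ± 68.9), Apoa5 (414 ± 46.3) and Apom (89.5 ± 29.3), n = 3 in each group. In HepKO the libraries of neighbours overlapped for Apoa1 and Apoa2, Apoa2 and Apoc1, Apoh and Apoc3, Apoc3 and Apoa4, Apoa4 and Apob, and Apoa5 and Apom, so those neighbours were not told apart. In WT this held for Apoa1 and Apoc1, Apoh and Apoa4, and Apoa4 and Apoc3. The ranges of Apoa1 and Apoa2 overlapped in HepKO, while in WT every Apoa2 library lay above every Apoa1 library. With levels per kilobase of the longest transcript, all Apoa2 libraries lay below all Apoa1 libraries in HepKO, and Apoc1 ranked above Apoa2 there and above Apoa1 in WT.

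The make-up of the apolipoprotein reads, which does not depend on the scaling of libraries, differed without overlap between the groups for 5 genes. As a share of the reads of all 10 genes, Apoa1 took 15.3% ± 1.27 in HepKO and 11.6% ± 1.33 in WT (SD, n = 3 each). Apoc3 took 2.27% ± 0.372 in HepKO and 1.73% ± 0.0493 in WT. Apom took 0.473% ± 0.0803 in HepKO and 0.171% ± 0.0485 in WT. A share is relative to the other members and is not a level. Apoa1 and Apoc3 were lower in HepKO under TMM (log2 fold change -0.55 for each) though their shares were larger.
The shares of Apoa2 and Apoa5 were smaller in every HepKO library than in any WT library. Apoa2 took 5.48% ± 0.893 in HepKO and 8.49% ± 0.595 in WT, and Apoa5 took 1.32% ± 0.134 in HepKO and 1.98% ± 0.121 in WT. Each of these 5 differences had an exact permutation p of 0.1 (2-sided, not adjusted for the 10 genes compared), the smallest p that 3 against 3 allows, so no share could pass 0.05. Shares of Apoe, Apob, Apoc1, Apoa4 and Apoh overlapped between the groups (exact permutation p of 0.3 to 0.9). Apob took 15.9% in HepKO replicate 1 and 25.8% and 24.3% in HepKO replicates 2 and 3, against 17.5% to 22.1% in WT.

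**Figure D3:**
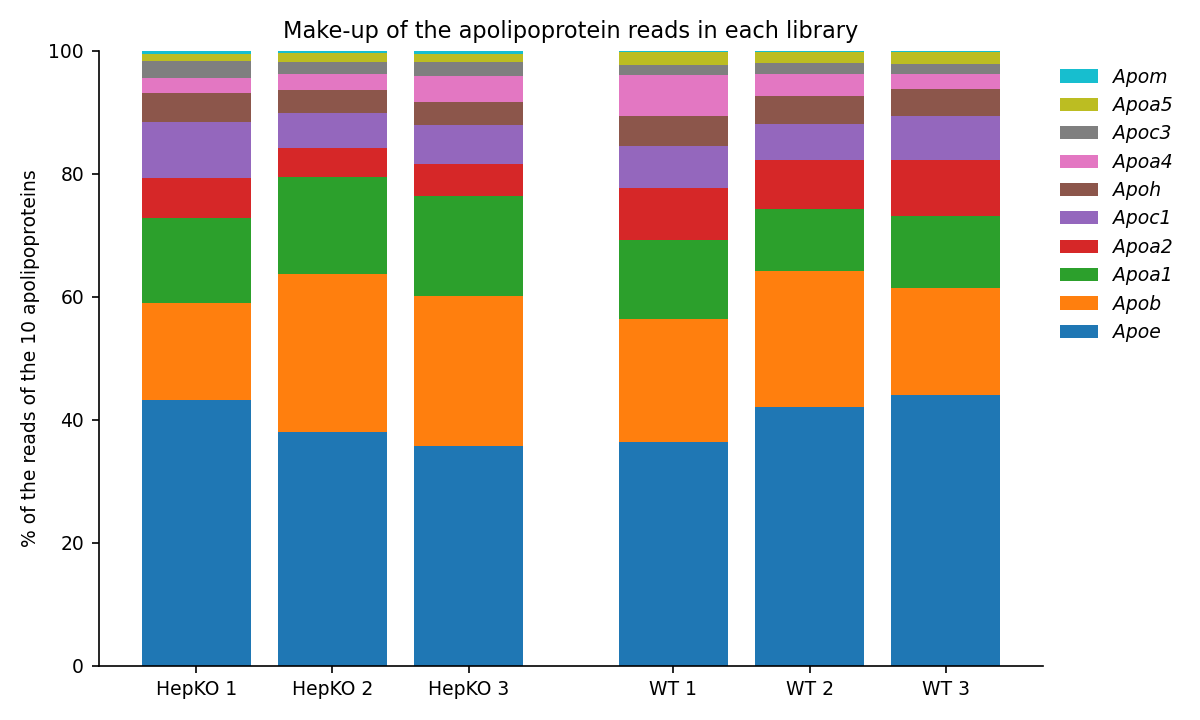
Each bar is 1 library and shows the percent of the reads of the 10 apolipoproteins that each gene took. Apoe took the largest share in every library, 35.8% to 43.1% in HepKO and 36.4% to 44.0% in WT, while the Apoa1 band is wider and the Apoa2 band narrower in HepKO.

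Of the 10 genes, 4 lie within 43.3 kb of chromosome 9 (GRCm38), as Apoa1 (46228580 to 46230466, plus strand), Apoc3 (46232933 to 46235636, minus strand), Apoa4 (46240696 to 46243459, plus strand) and Apoa5 (46268633 to 46271919, plus strand). Their log2 fold changes were unequal, at -0.55 and -0.55 for the neighbours Apoa1 and Apoc3 and -1.35 and -1.52 for Apoa4 and Apoa5. There were 0.0846, 0.0876 and 0.0874 Apoa5 reads per Apoa1 read in HepKO replicates 1 to 3, against 0.163, 0.181 and 0.170 in WT replicates 1 to 3. The ratio of Apoc3 to Apoa1 overlapped between the groups, at 0.124 to 0.193 in HepKO and 0.132 to 0.175 in WT. That of Apoa4 to Apoa1 also overlapped, at 0.171 to 0.261 in HepKO and 0.199 to 0.508 in WT. Of the other genes tested within 50 kb, Sik3 (log2 fold change -0.17, edgeR adjusted p = 0.171), Zpr1 (-0.34, edgeR adjusted p = 0.0632) and Bud13 (-0.46, edgeR adjusted p = 0.299) did not pass the test. Gm10680, Gm47528 and Gm47544, which lie opposite Apoa4 and Apoa5, did not pass it either (edgeR adjusted p = 0.185, 0.513 and 0.241). Zpr1 was called lower without HepKO replicate 1 (log2 fold change -0.48, edgeR adjusted p = 0.0101) and with a replicate block (edgeR adjusted p = 0.0441). Bud13 was called lower without WT replicate 1 (log2 fold change -0.76, edgeR adjusted p = 0.0480). Sik3 was called higher under library totals (log2 fold change 0.34, edgeR adjusted p = 0.0155).

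Apoe (19696109 to 19699188) and Apoc1 (19689481 to 19692660) are neighbours on the minus strand of chromosome 7, followed by Apoc4 and Apoc2. Apoc4 fell to 191 ± 16.6 CPM in HepKO, against 392 ± 13.5 CPM in WT (log2 fold change -1.03 ± 0.11 SE, edgeR adjusted p = 3.98e-04). The ratio of Apoc1 to Apoe reads overlapped between the groups, at 0.149 to 0.211 in HepKO and 0.138 to 0.187 in WT. Apoc2, the activator of lipoprotein lipase, had only 64 to 116 counts in HepKO and 67 to 91 counts in WT (log2 fold change -0.17 ± 0.39 SE, edgeR adjusted p = 0.763). Gm44805 overlaps 646 of its 813 exonic bases on the same strand, so how its reads were assigned is uncertain and its count was not read as its level. Past the cluster, Tomm40, a subunit of the mitochondrial import pore, fell (log2 fold change -0.46 ± 0.13 SE, edgeR adjusted p = 0.0244), though its log2 fold change was 0.05 under library totals. Its call ended when HepKO replicate 2, HepKO replicate 3, WT replicate 2 or WT replicate 3 was left out (edgeR adjusted p = 0.0575 to 0.105). Nectin2 (0.30, edgeR adjusted p = 0.231), Clptm1 (-0.16, edgeR adjusted p = 0.196) and Gm44805 (-0.95, edgeR adjusted p = 0.0771) did not pass the test. Nectin2 was called higher without HepKO replicate 1 (log2 fold change 0.47, edgeR adjusted p = 0.0188). Under library totals Nectin2 (0.81, edgeR adjusted p = 0.00673) and Clptm1 (0.35, edgeR adjusted p = 0.00925) were called higher. Gm44805 was called lower with DESeq2 (adjusted p = 0.0480).

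The other 4 members lie apart from these clusters. They are Apoa2 on chromosome 1 (171225054 to 171226379, plus strand), Apoh on chromosome 11 (108343354 to 108414396, plus strand), Apob on chromosome 12 (7977648 to 8016835, plus strand) and Apom on chromosome 17 (35128997 to 35132050, minus strand).

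**Figure D4:**
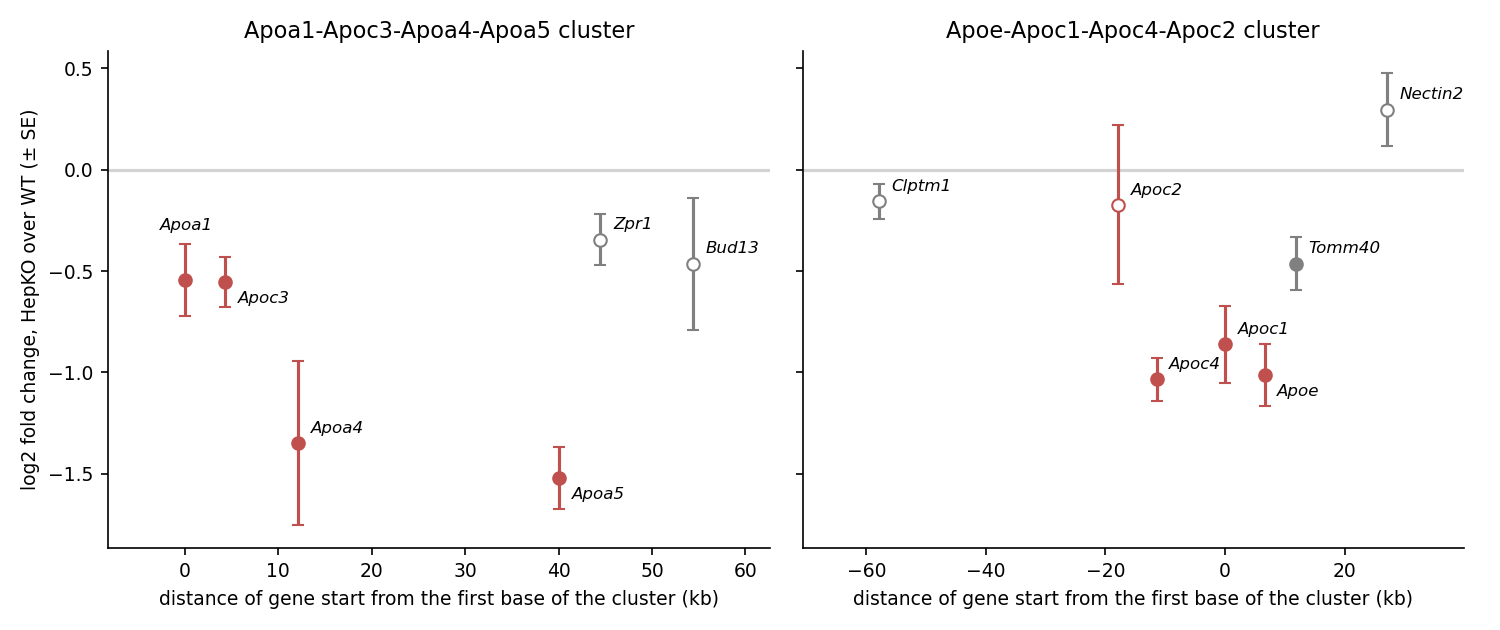
Log2 fold changes (HepKO over WT, ± SE) against the distance in kb of each gene's lowest coordinate from that of the first member, for the chromosome 9 cluster (left) and the chromosome 7 cluster (right). Apolipoprotein genes are red and flanking genes grey, filled symbols passed an adjusted p under 0.05, and predicted genes and Sik3, whose start lies farther out, are left out. Apoa4 (-1.35) and Apoa5 (-1.52) lie below Apoa1 and Apoc3 (-0.55 each), while Apoc4 (-1.03), Apoc1 (-0.86) and Apoe (-1.01) lie close together.

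Other genes of apolipoprotein name or kind went both ways. Of 21 listed, 14 were tested, with 4 higher and 4 lower and a median log2 fold change of -0.04 under TMM and 0.46 under library totals. Under library totals 6 were higher and 3 lower. Over all genes, 19.5% were higher and 18.7% lower under TMM, and the medians were 0.01 and 0.52. The medians of this list lie near those of all genes, and its counts rest on 14 genes. The lists that follow are read against the same shares, and against 46.4% higher and 5.84% lower under library totals. Lower in HepKO besides Apoc4 were Saa4, a constitutive serum amyloid A protein of HDL (128 ± 18.2 CPM in HepKO and 396 ± 191 CPM in WT, log2 fold change -1.63, edgeR adjusted p = 0.00465), and Apol7a (log2 fold change -1.23, edgeR adjusted p = 0.00546). Apon was lower under TMM (log2 fold change -0.68, edgeR adjusted p = 0.00424) but not under library totals (edgeR adjusted p = 0.269). Clu, a secreted chaperone also called apolipoprotein J, was higher at 2238 ± 230 CPM in HepKO and 1389 ± 144 CPM in WT (log2 fold change 0.69 ± 0.14 SE, edgeR adjusted p = 0.00612). Apol9a (log2 fold change 2.14, edgeR adjusted p = 7.86e-04) and Apol9b (log2 fold change 1.54, edgeR adjusted p = 0.00195) were higher as well. These are near-identical copies whose reads may be split between them. Apol10b was higher with at most 46 counts in a library (log2 fold change 2.49, edgeR adjusted p = 0.0195), and its call ended when replicate 1 or 3 of HepKO or of WT was left out (edgeR adjusted p = 0.0519 to 0.0752).

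Genes that assemble and secrete Apob particles were mostly lower under TMM. Of 19 tested, 10 fell and 2 rose (median log2 fold change -0.41), while library totals gave 2 falls and 6 rises (median 0.10). Mia2, which with Mia3 loads large cargo into vesicles leaving the endoplasmic reticulum, had 362 ± 19.8 CPM in HepKO and 723 ± 15.4 CPM in WT (log2 fold change -0.997 ± 0.10 SE, edgeR adjusted p = 3.97e-04). Sar1b, the small GTPase that builds those vesicles, fell as well (log2 fold change -0.86 ± 0.11 SE, edgeR adjusted p = 8.93e-04). Apobec1, the deaminase that edits Apob mRNA to give its short form, rose to 42.8 ± 3.84 CPM in HepKO, against 14.3 ± 3.41 CPM in WT (log2 fold change 1.59 ± 0.17 SE, edgeR adjusted p = 5.21e-04). A gene count does not show the share of edited Apob mRNA.

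Enzymes and carriers that remodel lipoproteins in plasma held larger changes in both directions. Of 15 tested, 9 fell and 3 rose under TMM (median -0.41), while library totals gave 4 falls and 4 rises (median 0.10). Lpl, lipoprotein lipase, rose to 256 ± 39.5 CPM in HepKO, against 53.2 ± 10.1 CPM in WT (log2 fold change 2.26 ± 0.17 SE, edgeR adjusted p = 1.49e-04). Lipg, endothelial lipase, which acts on HDL phospholipid, fell to 5.68 ± 0.573 CPM in HepKO, against 54.8 ± 19.4 CPM in WT (log2 fold change -3.27 ± 0.25 SE, edgeR adjusted p = 1.51e-04). Angptl4, a secreted inhibitor of Lpl, also fell (log2 fold change -2.19 ± 0.27 SE, edgeR adjusted p = 7.73e-04). Macrophage markers, whose cells also express Lpl, were higher in HepKO as given beside Apoe, and their part in the Lpl level was not tested.

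Among receptors and uptake factors, 5 of 16 tested were higher and 2 lower (median 0.10), and 10 were higher and 0 lower under library totals (median 0.60). The medians lie near those of all genes under each scaling (0.01 under TMM and 0.52 under library totals). Over all genes 19.5% were higher and 18.7% lower under TMM, and 46.4% higher and 5.84% lower under library totals. Sort1, a sorting receptor of the Golgi that binds Apob (log2 fold change 1.76 ± 0.20 SE, edgeR adjusted p = 6.19e-04), Apobr, the receptor for Apob-48 found on macrophages (1.997 ± 0.25 SE, edgeR adjusted p = 9.35e-04), and Msr1, the macrophage scavenger receptor (1.71 ± 0.23 SE, edgeR adjusted p = 0.00111), were higher. Macrophage markers rose beside Apobr and Msr1, with 10 of 11 Kupffer cell markers (median log2 fold change 1.68) and all 7 tested markers of recruited macrophages (median 2.71) higher, and their part in these rises was not tested. The remnant receptor Lrp1, named after its values were seen, was lower under TMM (log2 fold change -0.58 ± 0.17 SE, edgeR adjusted p = 0.0274). Its call ended under library totals (log2 fold change -0.07) and without WT replicate 2 or WT replicate 3 (edgeR adjusted p = 0.0740 and 0.106).

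Transcription factors and coactivators known to act on apolipoprotein genes were mostly lower under TMM. Of 28 tested, 18 fell and 1 rose (median -0.51), while library totals gave 6 falls and 7 rises (median 0.00). Ppara, the fatty acid receptor that regulates Apoa1, Apoa2 and Apoa5 in human liver cells, fell to 86.5 ± 14.6 CPM in HepKO, against 290.2 ± 28.3 CPM in WT (log2 fold change -1.75 ± 0.15 SE, edgeR adjusted p = 1.94e-04). Nr1h4, the bile acid receptor, fell as well (log2 fold change -0.995 ± 0.11 SE, edgeR adjusted p = 4.59e-04). Hnf4a, named after its values were seen, had a log2 fold change of -0.35 ± 0.11 SE under TMM (edgeR adjusted p = 0.0379). Its direction turned under library totals (log2 fold change 0.16, edgeR adjusted p = 0.235), and its call ended whichever library was left out (edgeR adjusted p = 0.0520 to 0.114).

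A fall under TMM was also seen in plasma proteins that are not apolipoproteins. Of 26 abundant hepatocyte products tested, 16 fell and 1 rose (median -0.61), while library totals gave 7 falls and 5 rises (median -0.10). Serpina1d and Serpina1b, protease inhibitors of a family of near-identical copies, had log2 fold changes of -1.89 ± 0.14 SE (edgeR adjusted p = 1.36e-04) and -1.30 ± 0.13 SE (edgeR adjusted p = 4.28e-04). Rbp4, which carries retinol, had -1.13 ± 0.13 SE (edgeR adjusted p = 6.93e-04). Without HepKO replicate 1, 17.5% of all genes were lower and 16.3% higher. Lower were then 4 of 14 other apolipoproteins, 11 of 19 assembly genes, 8 of 15 remodelling genes, 3 of 16 receptors, 14 of 28 regulators and 17 of 26 plasma proteins. In the same order, 3, 2, 3, 6, 1 and 2 genes of these lists were higher. The median of the 10 apolipoproteins, -0.94, lay below that of this list, and no test of that difference was made.

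**Figure D5:**
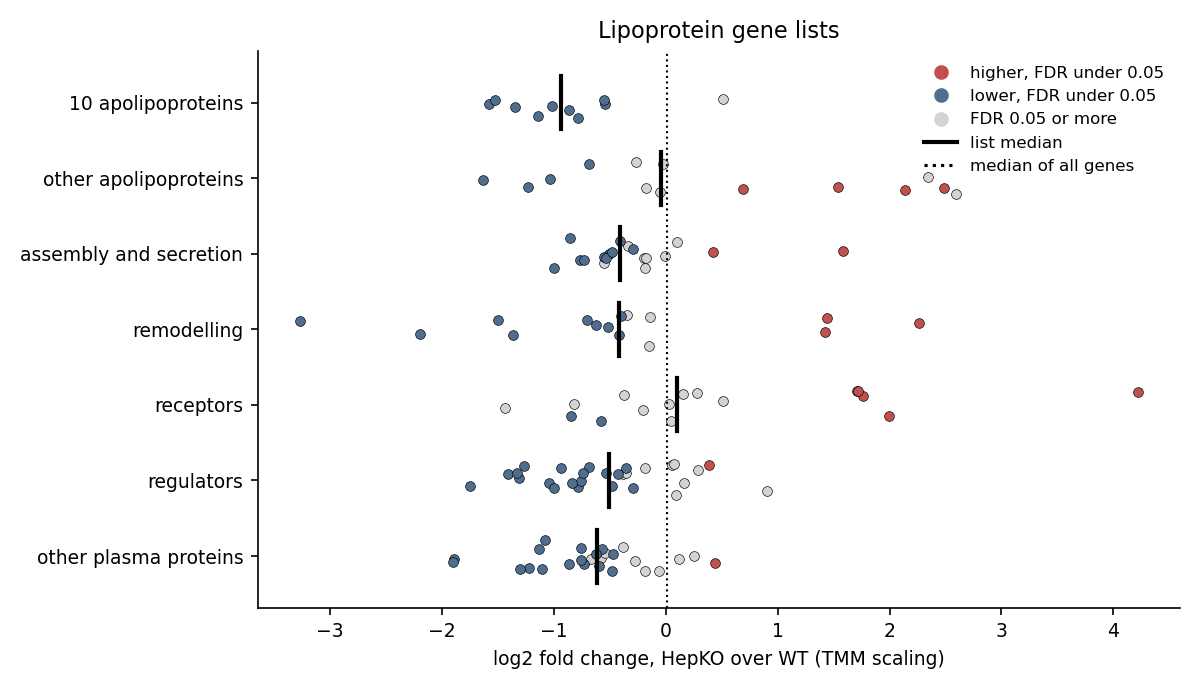
Each point is a gene placed by its log2 fold change (HepKO over WT, TMM scaling), with blue for lower and red for higher at an adjusted p under 0.05 and grey for the rest, and vertical bars at list medians. The dotted line is the median of all genes (0.01), and list medians run from -0.94 for the 10 apolipoproteins to 0.10 for receptors.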

How the data were processed

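Liver RNA of 3 HepKO and 3 WT samples was compared. The deposited values are raw read counts per gene. The submitters' processing notes name STAR 2.7.11a, Subread 2.0.0 with featureCounts, edgeR 3.40.2, bcl2fastq and the build mm10. Neither annotation release nor strand setting is given there. Of 56350 IDs, 55480 matched GENCODE M21 (GRCm38, the assembly of mm10) without version. Genes were filtered with filterByExpr, scaled by TMM and tested across the whole table in R 4.3.3 with edgeR 4.0.16 (quasi-likelihood F test), and called at a Benjamini-Hochberg adjusted p under 0.05. SE is the log2 fold change over the square root of F. The labels do not say that samples of a group are separate animals, though the sex-linked counts set HepKO replicate 1 apart. The p-values therefore reflect sample spread that may in part be technical.

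The 10 members and all lists were chosen with earlier results of these data known. Named were all members, tested cluster neighbours within 50 kb, called genes of the other apolipoprotein list, and the 3 genes of smallest p in each further list, of which 1 regulator is not reported here. Alternatives were DESeq2 1.42.0, limma-voom (limma 3.58.1), other scalings, filters and thresholds, each library left out, and a replicate block. The fit was tested on simulated data.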

Additional observations from a re-analysis of the deposited data

How the results depend on the processing

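Scaling was the choice that moved most counts. With library totals, 4 members were lower and 1 higher, where 5.84% of all genes were lower and 46.4% higher. The lists then had 2 lower and 6 higher assembly genes, 4 lower remodelling genes, 0 lower and 10 higher receptors, 6 lower and 7 higher regulators, and 7 lower and 5 higher plasma proteins. With no filter on low counts 1 member was higher and 0 regulators were. With DESeq2 1 member was higher, where 21.6% of all genes were higher and 19.3% lower. With limma-voom 0 regulators were higher, where 19.0% of all genes were higher and 19.2% lower. The replicate numbers did not pair the samples (r of -0.12, -0.07 and 0.00 between same-numbered samples). A replicate block gave 1 member (Apom) and 0 regulators higher, where 16.0% of all genes were higher and 15.6% lower. Under this block the calls of Apoa1 (edgeR adjusted p = 0.0817) and Apoa4 (edgeR adjusted p = 0.0930) ended. Requiring an absolute log2 fold change of 1 left 5 members, 0 assembly genes, 4 remodelling genes, 0 receptors, 6 regulators and 7 plasma proteins lower, and 1 assembly gene, 0 regulators and 0 plasma proteins higher. An adjusted p under 0.01 left 6 members lower, and the calls of Apob, Apoa1 and Apoa4 ended. It left 1 receptor lower and 1 assembly gene, 0 regulators and 0 plasma proteins higher. Shares of all genes were not counted with no filter or at these thresholds. Leaving out each library gave 6 to 8 members lower and 0 to 1 higher, 1 to 3 receptors lower, 0 to 1 regulators higher and 0 to 2 plasma proteins higher. Without HepKO replicate 1, 17.5% of all genes were lower and 16.3% higher, and these shares were not counted for the other libraries. The difference in share, HepKO minus WT, turned to 0.08 percentage points for Apoe with reads per kilobase. It ran from -0.589 to 1.146 for Apoc1 and from -1.93 to 0.169 for Apoa4 when a library was left out. The sign of the log2 fold change turned with library totals for Apoc2 (0.34), Bud13 (0.042), Clptm1 (0.35), Hnf4a (0.16), Sik3 (0.34), Tomm40 (0.047) and Zpr1 (0.17). When a library was left out, that of Apoc2 ran from -0.50 to 0.13 (above 0 without HepKO replicate 1) and that of Gm47528 from -1.63 to 0.29 (above 0 without WT replicate 1). The causes were not tested. With 3 samples in each group, no difference in share could reach an exact permutation p under 0.1.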
